A study of Mus musculus with 2 samples.

Results

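Endothelial cells line the vessels of the heart, and pericytes wrap the capillaries. The genes described here are 10 that mark these cells, Rgs5, Aqp1, Flt1, Kdr, Pecam1, Cdh5, Tie1, Tek, Pdgfrb and Abcc9, out of 25004 genes in the whole table. They were given by name, chosen by their role in vessels with the counts in these same libraries already known, and for each gene the counts of all its RefSeq transcripts were summed. The mice were of the FvB/N strain and 12 weeks old, and mRNA of whole hearts was measured. One library came from mice whose transgene encodes cardiac myosin binding protein-C, a thick-filament protein of the sarcomere, without the C0-C1f region at its amino terminus, and 1 library came from non-transgenic mice. Each library pooled 3 hearts. No source used here gives the promoter that drives the transgene or the state of the endogenous gene. With 1 library per group there is no replicate check and no test. Every interval below is a 95% interval that covers counting error only, and every ratio describes these libraries and not the genotypes. Since the counts themselves were in view when the genes were chosen, the values are a description.

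Vascular endothelial growth factor (VEGF) acts on endothelial cells through the receptor Kdr, while Flt1 binds the same ligand more tightly and holds it back from Kdr. Angiopoietins act through Tek, whose relative Tie1 modulates it. Cdh5 and Pecam1 join neighbouring endothelial cells, and Aqp1 is a water channel of capillary endothelium. Platelet-derived growth factor B released by endothelium recruits pericytes through Pdgfrb. Rgs5, which shortens signalling by G proteins, and Abcc9, the regulatory subunit of an ATP-sensitive potassium channel, are used as pericyte markers of the heart.

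The main contrast lay between Rgs5, Aqp1 and Flt1, which were higher in the transgenic library, and Kdr, Cdh5 and Tie1, whose intervals covered a ratio of 1. The promoters of the 3 higher genes and of Kdr, the other VEGF receptor, are shown. Those of Cdh5 and Tie1, on the same side of the contrast as Kdr, are not, and the part of any promoter in it was not tested. Gene positions given further below are from GENCODE M21, in which Aqp1 and Kdr have other start positions. Each promoter shown is the 250 bases before the gene start in RefSeq on GRCm38.p6, written 5′ to 3′ on the gene's own strand. They lie at chr1:169655251-169655500 on the plus strand for Rgs5, chr6:55336049-55336298 on the plus strand for Aqp1, and chr5:147726012-147726261 and chr5:75978456-75978705 on the minus strand for Flt1 and Kdr. Capitals mark each GGAA, the core bound by ETS transcription factors, or its reverse complement TTCC.
Rgs5: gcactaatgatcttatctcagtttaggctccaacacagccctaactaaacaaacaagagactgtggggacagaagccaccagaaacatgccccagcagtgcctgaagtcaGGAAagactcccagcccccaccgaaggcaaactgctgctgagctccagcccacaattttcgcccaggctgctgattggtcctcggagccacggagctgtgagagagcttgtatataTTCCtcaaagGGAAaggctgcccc
Aqp1: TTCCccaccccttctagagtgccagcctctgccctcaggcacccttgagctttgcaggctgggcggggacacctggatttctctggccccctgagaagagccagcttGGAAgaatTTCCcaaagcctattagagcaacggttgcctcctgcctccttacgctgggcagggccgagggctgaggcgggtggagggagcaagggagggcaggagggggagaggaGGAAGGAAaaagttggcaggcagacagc
Flt1: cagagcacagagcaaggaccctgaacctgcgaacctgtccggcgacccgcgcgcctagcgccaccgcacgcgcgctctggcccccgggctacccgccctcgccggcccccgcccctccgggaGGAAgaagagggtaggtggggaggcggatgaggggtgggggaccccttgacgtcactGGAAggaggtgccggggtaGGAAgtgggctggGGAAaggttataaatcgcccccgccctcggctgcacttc
Kdr: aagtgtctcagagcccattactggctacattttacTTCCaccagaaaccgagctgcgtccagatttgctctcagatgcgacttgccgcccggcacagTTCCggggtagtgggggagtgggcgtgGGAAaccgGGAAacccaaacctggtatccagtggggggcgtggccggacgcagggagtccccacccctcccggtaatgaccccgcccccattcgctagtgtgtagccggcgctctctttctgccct
Searched on both strands, the core was found 3 times in the Rgs5 window, 5 times in that of Aqp1 and 4 times each in those of Flt1 and Kdr. Over the 7 of the 10 genes whose windows were searched the number ran from 2 in Tek and Abcc9 to 7 in Tie1. Pecam1, Cdh5 and Pdgfrb were not searched. Among 32851 promoter windows of the same length 93.4% held the core, with a median of 3. The longer motif CCGGAAG, which contains that core, was in none of the 7 windows, against 6.91% of all windows. GC content was 53.6% for Rgs5, 62.0% for Aqp1, 70.4% for Flt1 and 61.6% for Kdr, beside a median of 52.4% over all windows.

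Of the 10 genes 6 could be followed in both libraries, and each rested on few reads. Counts summed to 190824 in the transgenic and 170543 in the non-transgenic library, with a count for 7081 genes in the transgenic and 6725 in the non-transgenic library. After scaling of the libraries by TMM factors, 1 count stood for 4.94 CPM, a count scaled to equal library totals, in the transgenic and 6.22 CPM in the non-transgenic library. The tissue label was checked on cardiomyocyte markers. Myl2, the ventricular light chain, which overlaps an opposite-strand gene, had 3916 counts in the transgenic and 2405 in the non-transgenic library. Tnnt2, Myl3 and Tpm1, each with more than 1 accession, had none in either. Myh6 had 1 transgenic and 0 non-transgenic counts, Mb 0 and 1, Pln 1 and 2, and Atp2a2 4 and 3. These too have more than 1 accession, so the label was checked on part of the markers only. Genes with an exon that overlaps an opposite-strand exon in GENCODE M21 held 68.5% of the counts in the transgenic and 72.7% in the non-transgenic library, and the average gene of this class had 21.8 counts in the transgenic and 20.7 in the non-transgenic library. For genes with no opposite-strand exon within 5 kb, called isolated here, the average was 2.12 in the transgenic and 1.59 in the non-transgenic library. Of the 10 genes 7 are isolated, Cdh5 and Pecam1 have an opposite exon within 5 kb, and Abcc9 overlaps one.

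Rgs5 was the most counted of the 10 genes and was higher in the transgenic library. It lies on chromosome 1, 169655501 to 169695813 in GENCODE M21 on GRCm38, as for all gene positions here. It had 157 counts in the transgenic and 65 in the non-transgenic library, or 776 CPM (counting interval 659 to 907) in the transgenic and 404 CPM (312 to 515) in the non-transgenic library. These intervals do not overlap. The ratio of transgenic to non-transgenic was 1.92 (1.43 to 2.61). In a whole heart, more or fewer cells of a type and more or less RNA per cell cannot be told apart. The strand setting of the counting is not given, and its part in this ratio and those below was not tested. All of these counts lay on the accession NM_009063, and the second accession, NM_001313705, had 0 in both libraries.

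Aqp1 (chromosome 6, 55336432 to 55348555) showed the highest ratio of the 6 genes, 2.88 (1.29 to 7.30). It had 29 counts in the transgenic and 8 in the non-transgenic library. In CPM these were 143 (96.0 to 206) in the transgenic and 49.7 (21.5 to 98.0) in the non-transgenic library, and the intervals overlap slightly.

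Flt1 (chromosome 5, 147561604 to 147726011) was also higher, with the lower end of its interval nearest to 1 of the 3 higher genes. It had 25 counts in the transgenic and 8 in the non-transgenic library, or 124 CPM (80.0 to 182) in the transgenic and 49.7 CPM (21.5 to 98.0) in the non-transgenic library, and these intervals overlap in part. The ratio was 2.48 (1.09 to 6.37). Its counts came from 2 accessions. NM_010228, whose matched transcript spans the whole gene, had 20 counts in the transgenic and 7 in the non-transgenic library. NM_001363135, whose matched transcript ends within the gene, had 5 transgenic and 1 non-transgenic counts. Flt1 is known to make a shorter transcript for a soluble receptor, and the tables used do not say whether NM_001363135 is that form. Its share of Flt1 counts was 20.0% in the transgenic (6.83% to 40.7%, exact binomial) and 12.5% in the non-transgenic library (0.316% to 52.7%). These intervals overlap widely, so no change in the balance of the accessions could be seen at this depth. On NM_010228 alone the ratio was 2.27 (0.923 to 6.36), and the interval no longer lay above 1.

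Kdr (chromosome 5, 75932827 to 75978458) had nearly equal counts, 22 in the transgenic and 23 in the non-transgenic library, a ratio of 0.761 (0.404 to 1.43). Cdh5 (chromosome 8, 104101625 to 104144511), which encodes VE-cadherin, the adhesion protein of endothelial adherens junctions, had 42 counts in the transgenic and 39 in the non-transgenic library, a ratio of 0.856 (0.540 to 1.36). Tie1 (chromosome 4, 118471191 to 118490061) had the lowest counts of the 6 genes, 6 in the transgenic and 7 in the non-transgenic library, and a ratio of 0.682 (0.189 to 2.37). In CPM the libraries' intervals overlapped for each of these 3 genes. With TMM scaling the upper ends for Kdr and Cdh5 lay below a rise of 1.5-fold and that of Tie1 above it. With total counts the upper ends were 1.60 for Kdr and 1.53 for Cdh5, and with DESeq2 size factors 1.54 for Kdr and 1.47 for Cdh5, so a 1.5-fold rise of either gene was not outside the counting error under every scaling.

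**Figure D1:**
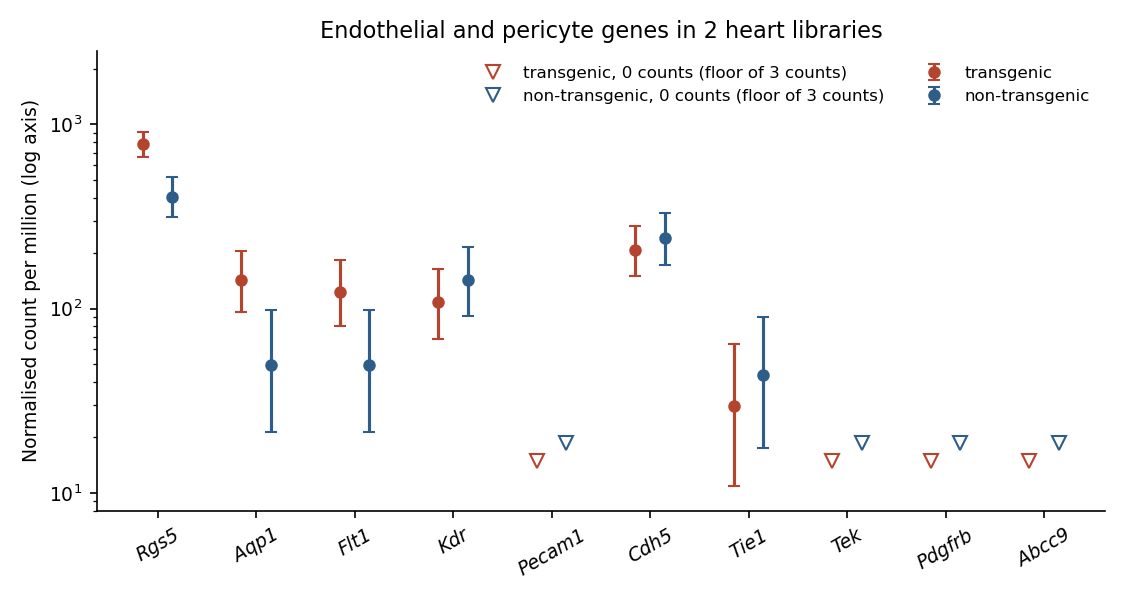
Normalised CPM of the 10 genes on a log axis, transgenic library left and non-transgenic library right within each gene. Points carry exact 95% Poisson intervals, and open triangles mark a count of 0 drawn at the floor of 3 counts. Rgs5, Aqp1 and Flt1 sit higher in the transgenic library, and 4 genes had no count.

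Among the 10 genes, 6 exceeded 3 counts in a library, beside 16.9% of all genes and 9.99% of isolated genes. Tie1, with 6 counts in the transgenic and 7 in the non-transgenic library, was the nearest above this threshold. No gene had 1 to 3 counts, and the 4 below it had 0. A gene was counted as higher or lower if its ratio was at least 1.5-fold from 1 and its interval lay on the same side of 1. By this rule 3 of the 6 were higher, none was lower and 3 were neither. Of all 4236 genes that exceeded 3 counts, 3.42% were higher and 5.9% lower, which is 145 higher and 250 lower genes. This balance turned with the scaling, to 218 higher and 185 lower genes with DESeq2 size factors and 244 higher and 148 lower with total counts, so that higher genes made up 36.7%, 54.1% and 62.2% of the calls under TMM, DESeq2 and total counts. Among isolated genes 4.55% were higher and 2.36% lower, and among genes with at least 30 counts over both libraries 6.23% were higher and 12.1% lower. At a threshold of 2-fold Aqp1 and Flt1 were higher, beside 2.48% of all genes, and none of the 6 was lower, beside 3.71%. The share of the 6 genes that were higher rests on 3 genes chosen with these counts known and is no evidence for the group.

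The median log2 ratio of the 6 genes was 0.36, and that of all genes with a ratio was 0.05. Isolated genes as a class had a median of 0.21. Relative to that median Rgs5 stood at 1.66-fold (1.24 to 2.25) and Aqp1 at 2.49-fold (1.11 to 6.31). Flt1 stood at 2.15-fold (0.939 to 5.51), which ends its call. Scaling by DESeq2 size factors and by total counts raised the median over all genes by 0.11 and 0.17 on the log2 scale, and all 3 calls held under both.

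The contrast within the group does not depend on how the libraries were scaled, since a ratio between ratios cancels the scaling. Of the 15 pairs among the 6 genes, 6 had a 95% interval that excluded 1, without adjustment for the number of pairs. These were the pairs of Rgs5, Aqp1 or Flt1 with Kdr or Cdh5. The ratio of Flt1 was 3.27 times that of Kdr (1.11 to 10.1), both being VEGF receptors of endothelium. Flt1 was summed over its 2 accessions here, and its pairs were not computed on the most counted accession alone. The ratio of Aqp1 was 3.37 times that of Cdh5 (1.29 to 9.49), and the ratio of Rgs5 was 2.24 times that of Cdh5 (1.28 to 3.91). No pair within the 3 higher genes, or within the other 3, had such an interval. All intervals against Tie1 covered 1 as well. The sides of this contrast were drawn from the same counts as the pairs. The pairs therefore restate it without the scaling and are no further support for it. They describe genes whose counts were known when they were chosen, and no test was made.

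Levels can be compared between genes only per length, here as CPM per kb of the most counted transcript. The strand setting of the counting and the handling of reads shared by accessions are not given, and their part in these levels was not tested, so the order is one of counted reads. Rgs5 stood above the other 5 genes in both libraries, at 189 CPM per kb (161 to 222) in the transgenic and 98.7 (76.1 to 126) in the non-transgenic library. In the non-transgenic library its interval overlapped that of Cdh5. Aqp1 and Cdh5 followed in the transgenic library at 54.6 (36.5 to 78.4) and 52.0 (37.5 to 70.2), which do not differ beyond counting error. Kdr at 18.4 (11.5 to 27.8) and Flt1 at 17.9 (11.6 to 26.5) could not be told apart there, and Tie1 was lowest at 7.25 (2.66 to 15.8), with an interval that overlapped both. In the non-transgenic library Cdh5 came second at 60.7 (43.2 to 83.0), followed by Kdr at 24.1 (15.3 to 36.2) and Aqp1 at 18.9 (8.17 to 37.3). Tie1 at 10.6 (4.28 to 21.9) and Flt1 at 7.21 (3.11 to 14.2) were lowest, and neighbours from Kdr down to Flt1 overlapped. The intervals of Aqp1 and Cdh5 overlapped in the transgenic library and lay apart in the non-transgenic library, Aqp1 being the lower. Per kb of unshared exon bases Flt1 stood at 14.1 CPM in the transgenic and 5.69 CPM in the non-transgenic library and Rgs5 at 182 CPM in the transgenic and 94.6 CPM in the non-transgenic library, which left the order of Rgs5, Aqp1, Cdh5, Flt1 and Tie1 as it was in each library. Kdr, with an accession that was not matched, has no such value.

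The summed counts of the 10 genes were 281 in the transgenic and 150 in the non-transgenic library. This was 0.147% of all counts (0.131% to 0.166%, exact binomial) in the transgenic and 0.0880% (0.0744% to 0.103%) in the non-transgenic library, and the intervals do not overlap. The normalised ratio of the sums was 1.49 (1.22 to 1.83). Without Rgs5 the sums were 124 in the transgenic and 85 in the non-transgenic library, and the ratio was 1.16 (0.873 to 1.55).

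**Figure D2:**
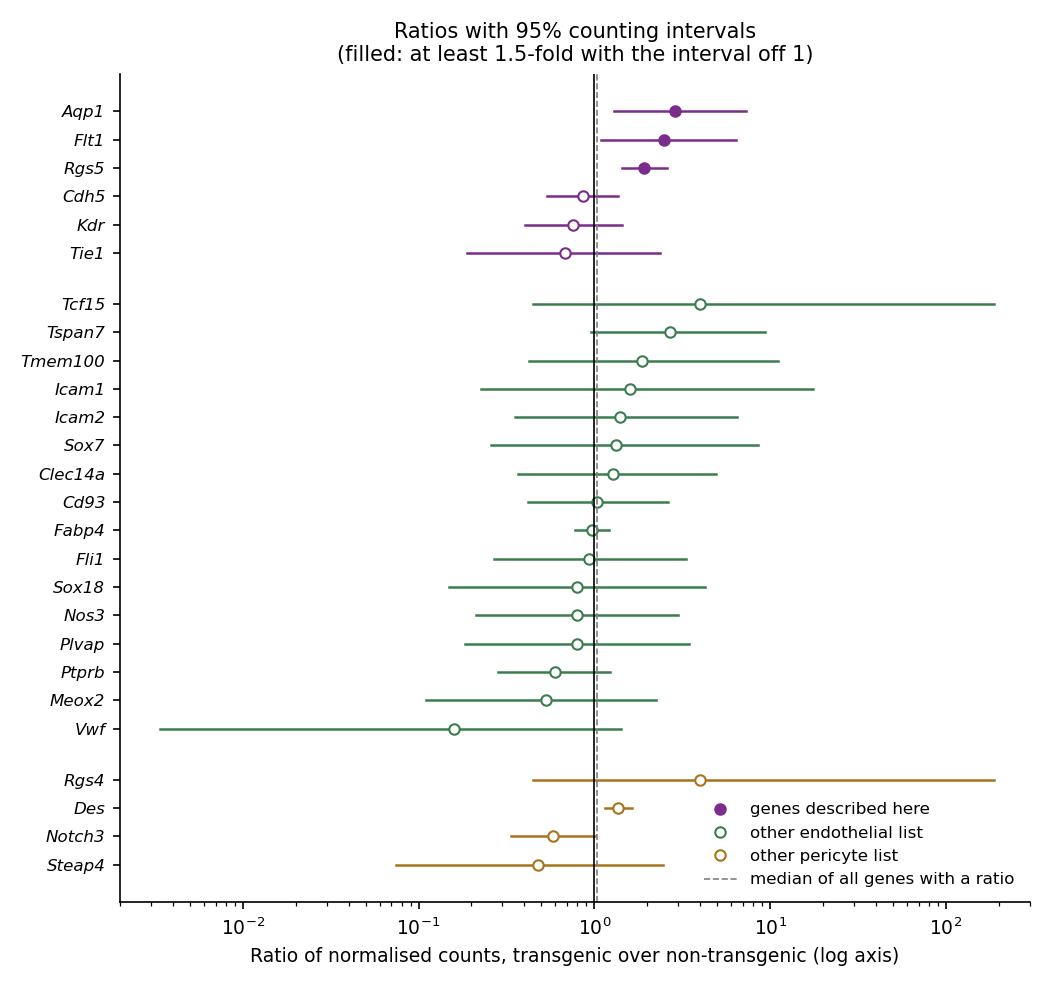
Transgenic over non-transgenic ratio of the normalised counts on a log axis, with 95% counting intervals, for each gene that exceeded 3 counts. Filled points are at least 1.5-fold from 1 with the interval off 1, which holds for Aqp1, Flt1 and Rgs5 and for none of the other endothelial and pericyte genes.

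Pecam1, Tek, Pdgfrb and Abcc9 had 0 counts in both libraries, although each is a standard marker of these cells. By counting error alone a 0 allows up to 3 counts, a one-sided 95% limit unlike the two-sided intervals of the counted genes, which is 14.8 CPM in the transgenic and 18.6 CPM in the non-transgenic library. Pecam1 (chromosome 11, 106654217 to 106750628) is listed under 4 RefSeq accessions, Tek (chromosome 4, 94739289 to 94874976) under 3, Pdgfrb (chromosome 18) under 2 and Abcc9 (chromosome 6, 142587862 to 142702315) under 5. In the GENCODE M21 transcripts matched to these accessions, 130 exon bases of Pecam1 and 48 of Tek lay in 1 counted accession only, and none of Pdgfrb or Abcc9 did. The counted genes differed from these. Aqp1, Cdh5 and Tie1 have 1 accession each, with all of their 2627, 3995 and 4091 bases unshared. Rgs5 had 4273 unshared bases over its 2 accessions and Flt1 had 8735. Kdr has 2 accessions, of which 1 was matched, so its 5924 bases are an upper limit.

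A less sharp pattern in the same direction held over the whole table. Of 1967 genes with more than 1 accession and under 200 unshared bases, 1.42% exceeded 3 counts in a library and 93.7% had no count in either. Of 791 genes with more than 1 accession and at least 2000 unshared bases, 16.6% exceeded 3 counts and 64.2% had no count in either. Of 16407 genes with 1 accession, 23.1% exceeded 3 counts and 58.2% had no count in either library. Most genes of each of these classes thus had no count at this depth. No source used here says how reads that fit several accessions were counted. The part this played in the 4 zeros was not tested, and the zeros give no level for these genes.

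**Figure D3:**
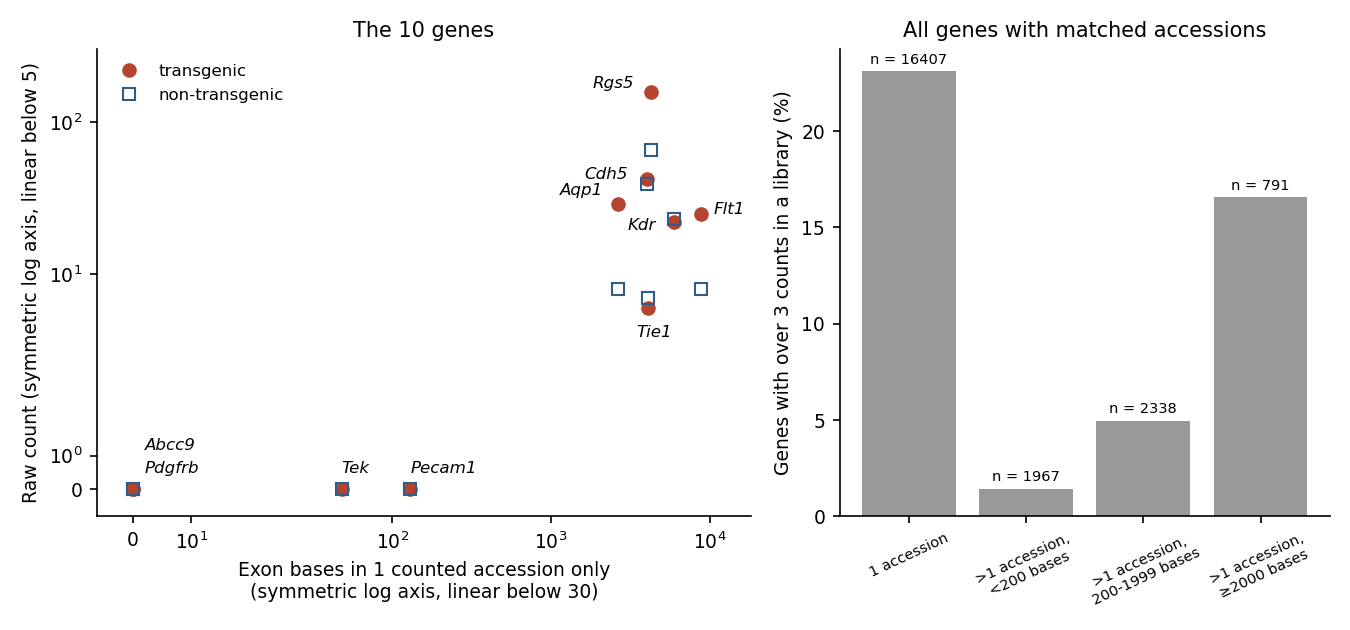
Left, raw counts of the 10 genes in the transgenic and non-transgenic library against the exon bases that lie in 1 counted accession only, both on symmetric log axes. The 4 genes with at most 130 such bases had no count, and the 6 with at least 2627, for Kdr an upper limit, were counted. Right, the percentage of all genes with over 3 counts in a library, 1.42% for genes with several accessions and under 200 unshared bases against 23.1% for genes with 1 accession.

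Abcc9 also has an opposite-strand gene that was counted. The exons of the long non-coding RNA gene 5330439B14Rik overlap those of Abcc9 by 158 bases on the other strand. It had 81 counts in the transgenic and 76 in the non-transgenic library, a ratio of 0.847 (0.612 to 1.17). The kit kept strand origin but the strand setting of the counting is not given, so reads of 5330439B14Rik and of Abcc9 cannot be told apart here. Kcnj8, which encodes the channel pore that Abcc9 regulates in vascular cells, is listed under 3 accessions and had 0 counts in both libraries. Kcnj11, the pore of the cardiomyocyte channel, had 21 counts in the transgenic and 32 in the non-transgenic library and was 1.92-fold lower, at a ratio of 0.522 (0.286 to 0.933), a call that was lost with DESeq2 size factors or total counts. Of the opposite-strand neighbours of the other genes, Milr1 beside Pecam1 and Gm29682 beside Cdh5 had no count in either library.

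Of 37 further endothelial genes 16 had more than 3 counts in a library. None was higher or lower by the 1.5-fold rule, except that Tspan7 was higher with DESeq2 size factors or total counts. Their median log2 ratio was 0.00, which turned to -0.03 with upper-quartile scaling and to -0.18 with centring within strand class, beside 0.05 over all genes. Fabp4, a fatty acid binding protein of capillary endothelium and fat cells, had 188 counts in the transgenic and 154 in the non-transgenic library, a ratio of 0.971 (0.780 to 1.21). Ptprb, a phosphatase that restrains Tek, had 15 transgenic and 20 non-transgenic counts, a ratio of 0.596 (0.284 to 1.23). Cd93, an endothelial adhesion receptor, had 13 transgenic and 10 non-transgenic counts, a ratio of 1.03 (0.419 to 2.63). Tspan7, a tetraspanin, had 17 transgenic and 5 non-transgenic counts, a ratio of 2.70 (0.957 to 9.37), with an interval that just reached 1. Of the 37 genes 14 had no count in either library, and all 14, Eng, Cd34, Emcn and Egfl7 among them, have more than 1 accession.

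Further pericyte and smooth muscle genes gave no common direction. Of 15 pericyte genes 4 had more than 3 counts, none was higher or lower except Des as higher with total counts or with centring within strand class and Notch3 as lower with upper-quartile scaling, and the median log2 ratio was -0.16, which turned to 0.01 with total counts. Des, the intermediate filament desmin, which cardiomyocytes make as well and which overlaps an opposite-strand gene, had 351 counts in the transgenic and 204 in the non-transgenic library, a ratio of 1.37 (1.15 to 1.63). Notch3, a receptor of mural cells that overlaps an opposite-strand gene too, had 25 transgenic and 34 non-transgenic counts, a ratio of 0.585 (0.334 to 1.01). Rgs4, a relative of Rgs5, had 5 transgenic and 1 non-transgenic counts, a ratio of 3.98 (0.445 to 188), and the metalloreductase gene Steap4 had 3 transgenic and 5 non-transgenic counts, a ratio of 0.477 (0.0741 to 2.45). The pericyte list summed to a ratio of 1.24 (1.06 to 1.46) with Des and 0.714 (0.464 to 1.10) without it. Of 9 smooth muscle genes 5 had a ratio and none was higher or lower, with a median of -0.26. Tagln had 26 counts in the transgenic and 28 in the non-transgenic library. Mylk, the myosin light chain kinase, had 20 transgenic and 19 non-transgenic counts, Acta2, smooth muscle actin, had 12 transgenic and 6 non-transgenic counts, and Synpo2 had 4 transgenic and 6 non-transgenic counts. Tagln and Mylk overlap an opposite-strand gene. The ratio of Rgs5 was not tested against these lists.

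A list of 28 ligands, receptors and regulators held genes of the VEGF, angiopoietin, platelet-derived growth factor and Notch pathways and, outside these pathways, Hif1a, Epas1, Apln, Aplnr and S1pr1. Of the 28 genes 8 had a ratio, Epas1, Aplnr and S1pr1 among them, and none was higher or lower. Another 10 had no count, and 8 of these have more than 1 accession, so their zeros give no level. Vegfa, the main ligand of Kdr and Flt1, is listed under 10 accessions and had 0 counts in both libraries, as had Angpt1, the main activating ligand of Tek, which has 2 accessions and no unshared base. Pdgfb, the ligand of Pdgfrb, had 6 counts in the transgenic and 8 in the non-transgenic library, a ratio of 0.596 (0.171 to 1.96). Epas1, a hypoxia-inducible transcription factor abundant in endothelium, had 47 transgenic and 35 non-transgenic counts, a ratio of 1.07 (0.675 to 1.70). Notch1 had 11 transgenic and 12 non-transgenic counts, and Plcg1, the phospholipase that acts below Kdr, had 8 transgenic and 9 non-transgenic counts, and both overlap an opposite-strand gene. The median log2 ratio of the 8 genes was -0.48.

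Among 12 genes of cell junctions and their regulators 7 had a ratio, 1 was higher and none was lower. Ctnna1, alpha-catenin, which links cadherins to actin in cardiomyocytes as well, had 100 counts in the transgenic and 51 in the non-transgenic library, a ratio of 1.56 (1.10 to 2.23). It overlaps an opposite-strand gene. The adhesion molecule gene Jam2 had 35 transgenic and 16 non-transgenic counts, a ratio of 1.74 (0.938 to 3.37). Rasip1, a regulator of vessel lumen formation that overlaps an opposite-strand gene too, had 37 transgenic and 32 non-transgenic counts, a ratio of 0.919 (0.557 to 1.52), and Jup, plakoglobin, had 17 in each library, a ratio of 0.795 (0.382 to 1.66). The median was -0.12 and turned to 0.05 with total counts. Among 18 further genes of ATP-sensitive potassium channel subunits, aquaporins and Rgs proteins, 4 had a ratio, none was higher and Kcnj11 alone was lower. Aqp7, another aquaporin, had 6 counts in the transgenic and 3 in the non-transgenic library, Rgs2 had 6 transgenic and 8 non-transgenic counts, and Rgs16, which overlaps an opposite-strand gene, had 3 transgenic and 5 non-transgenic counts. The median was -0.84. With TMM scaling this list summed to a ratio of 0.577 (0.367 to 0.898), and to 0.670 (0.322 to 1.37) without Kcnj11, its most counted gene.

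Marker lists of other heart cells had summed ratios below and above 1. Of 15 cardiomyocyte genes 9 had a ratio, 1 was higher and none was lower, and the list summed to 41302 CPM in the transgenic and 31724 CPM in the non-transgenic library, a ratio of 1.30 (1.26 to 1.35). Tnnc1, troponin C, was the higher gene at 1.59-fold (1.39 to 1.81), and lost this call when ratios were centred within strand class. Actc1, cardiac actin, had 1525 counts in the transgenic and 906 in the non-transgenic library, and Tnni3, troponin I, had 1374 transgenic and 783 non-transgenic counts. Of 11 fibroblast genes 5 had a ratio, and the list summed to 336 CPM in the transgenic and 417 CPM in the non-transgenic library, a ratio of 0.807 (0.567 to 1.15), with Postn and Mfap5 at 0. Without Dpt, its most counted gene, the ratio of the fibroblast list was 0.630 (0.410 to 0.963), an interval below 1. Dpt had 26 counts in the transgenic and 14 in the non-transgenic library, Lum had 9 transgenic and 11 non-transgenic counts, and Col1a2 had 8 transgenic and 7 non-transgenic counts. The collagen gene Col3a1 had 14 counts in the transgenic and 23 in the non-transgenic library and was the 1 lower gene, at a ratio of 0.484 (0.230 to 0.981), and lost this call with DESeq2 size factors or total counts. Of 14 leucocyte genes 3 had a ratio, and the list summed to 168 CPM in the transgenic and 118 CPM in the non-transgenic library, a ratio of 1.42 (0.789 to 2.64), with Ptprc, Adgre1 and Itgam at 0. Lyz2, lysozyme, had 15 counts in the transgenic and 6 in the non-transgenic library, Mrc1 had 9 transgenic and 3 non-transgenic counts, and C1qa had 4 in each. Of 10 lymphatic and endocardial genes 4 had a ratio, and the list summed to 138 CPM in the transgenic and 131 CPM in the non-transgenic library, a ratio of 1.06 (0.581 to 1.96), with Pdpn at 0. Tbx20 had 6 counts in the transgenic and 8 in the non-transgenic library, Npr3 had 6 transgenic and 4 non-transgenic counts, Lyve1 had 7 transgenic and 3 non-transgenic counts, and Plvap had 5 in each. The marker genes named so far at 0 in these lists all have more than 1 accession. Cd3e, Cd79a and Ccl21a of the same lists were at 0 in both libraries with 1 accession each. So were Ndufa4l2 of the pericyte list, Cnn1 of the smooth muscle list, Apln and Dusp5 of the ligand and receptor list, and Aqp11. Krit1 of the junction list was at 0 with 3 accessions and 3258 unshared bases. Rgs6 was at 0 with 3 accessions and 3455 unshared bases, and Nrp2 with 6 accessions and 2333 unshared bases. The part of any of these lists in the values of Rgs5, Aqp1 and Flt1 was not tested. The 37 further endothelial genes summed to 1503 CPM in the transgenic and 1523 CPM in the non-transgenic library, a ratio of 0.987 (0.831 to 1.17).

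**Figure D4:**
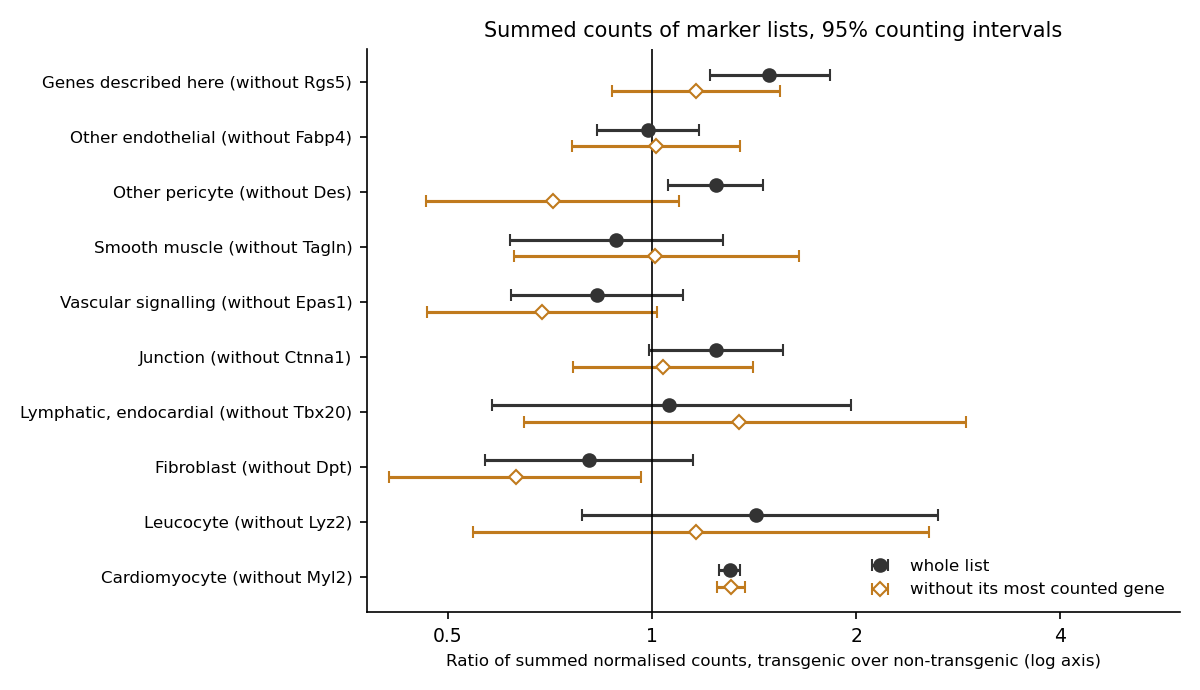
Ratio of summed normalised counts of the lists drawn, transgenic over non-transgenic, with 95% counting intervals on a log axis. Each is drawn as the whole list and without its most counted gene. The list of channel subunits, aquaporins and Rgs proteins is not drawn. The 10 genes described here stand at 1.49 with Rgs5 and 1.16 without it, and the other endothelial genes at 0.987.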

How the data were processed

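The deposited files hold raw counts of reads per RefSeq transcript for 41449 accessions in 1 transgenic and 1 non-transgenic library. STAR, HTSeq and mm10 are named in the submitters' processing notes. No source used here gives versions, the annotation or the strand setting. Per the labels' protocols, mRNA was selected on poly-T beads and prepared with a stranded TruSeq kit. Accessions were named from RefSeq (41252) or GENCODE M21 (99), 98 kept their own name, and counts were summed per gene. Promoters are from RefSeq on GRCm38.p6, and protein identity, also planned, was not analysed here.

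Library sizes were scaled with TMM factors (1.06 and 0.943) from edgeR 4.0.16 in R 4.3.3. The quasi-likelihood test needs replicates and was not run. Each ratio was given an interval by the exact Clopper-Pearson method, applied to the share of a gene's counts that fell in the transgenic library. A 0 was set to a floor of 3 counts. Strand classes and unshared bases used GENCODE M21 exons on GRCm38, and gene positions are from the same annotation. The alternatives tried were scaling by DESeq2 1.42.0 size factors, upper quartile or total counts, count filters of 1 and 10, 1 accession per gene, and a 2-fold threshold. Centring within strand class and levels per unshared base were added after seeing the data. The ratio calculation was tested on simulated counts that held counting error only, with changes planted in well counted genes. Recovery was not tried at counts as low as those of Aqp1 and Flt1. The simulation says nothing on differences between hearts, the strand setting or shared reads. The genes and lists were chosen with earlier results of these data known. Named were all 10 genes, opposite-strand neighbours, up to 4 most counted members of each list and any called, and genes at 0 or in pairs named for their role were chosen after their values were seen. Python 3.11.15, scipy 1.17.1 and matplotlib 3.10.9 were used.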

Additional observations from a re-analysis of the deposited data

How the results depend on the processing

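The calls of Rgs5 and Aqp1 as higher held under all alternatives tried at the 1.5-fold threshold, and that of Rgs5 was lost at 2-fold. Flt1 lost its call when only its most counted accession was used (log2 ratio 1.18) and when ratios were centred within strand class (1.10). The number of higher genes was 2 in each of these 3 settings and 3 in the others, and the number of lower genes was 0 in all. The median log2 ratio of the genes ran from 0.19 with centring to 0.94 with a filter of 10 counts, which drops Tie1. With the 10 most counted genes left out of the denominator the summed share of the 10 genes was 0.186% in the transgenic and 0.113% in the non-transgenic library. With DESeq2 size factors, 2 cardiomyocyte, 1 endothelial and 2 junction genes were higher. With total counts, 3 cardiomyocyte, 1 endothelial, 2 junction and 1 pericyte genes were higher. Under both, 0 fibroblast genes and 0 genes of the channel, aquaporin and Rgs list were lower. With upper-quartile factors 1 pericyte gene was lower, and with centring 1 pericyte and 0 cardiomyocyte genes were higher. The signs of the medians of the endothelial, pericyte, junction and lymphatic lists, all near 0, depended on the scaling. No paired analysis was possible because each group has 1 library. The depth of 190824 counts in the transgenic and 170543 in the non-transgenic library limits every value here.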
